A study of Mus musculus with 6 samples.

Results

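The glycolytic enzymes considered here are Hk1, Hk2, Gpi1, Pfkl, Pfkp, Aldoa, Pgk1, Eno1, Pkm (written Pkm2 in the deposited table) and Ldha, taken as every probe that carries one of these gene symbols. Of these 10 genes 8 had a probe, 11 probes in all, among the 17893 genes named in the table, and Hk2 and Gpi1 had none in the table used here. Transcript levels were measured on 6 Illumina bead arrays, read in 1 colour, with RNA from hepatic progenitor cells, immature epithelial cells of the liver that can form hepatocytes and bile duct cells. By genotype, 3 samples were Egfr fl/fl and 3 Met fl/fl, all on a C57BL/6 background and all described as controls. A floxed (fl) allele is flanked by recombination sites and stays intact without a recombinase. No recombinase, treatment, age or sex is given in the labels. Met fl/fl and Egfr fl/fl cells are therefore compared as 2 sets of control cells. Animal, culture and slide of origin are not part of the labels. The p-values then cover only the spread among these 6 samples, possibly a technical one, and slide or culture and genotype cannot be told apart.

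Glycolysis splits glucose into pyruvate in the cytosol and yields ATP and NADH without oxygen. Hexokinases trap glucose as glucose phosphate, phosphofructokinase makes the committed step, aldolase cleaves the hexose, phosphoglycerate kinase and pyruvate kinase make ATP, and lactate dehydrogenase turns pyruvate into lactate. Several steps have isoenzymes that differ between tissues, and in the liver the hepatocyte uses the liver pyruvate kinase where many other cells, proliferating ones among them, use the muscle type form.

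Between 43.8% and 45.3% of the 25697 probes were detected above background on each array, and the mean deposited intensity was 241 to 321 units in Egfr fl/fl and 275 to 398 units in Met fl/fl. The number of arrays limits the precision. Egfr fl/fl replicate 3 read above the mean of replicates 1 and 2 for 6 of the 7 testable enzymes, against 52.4% of all genes tested. Results that rest on that array are given with and without it. Of 12 hepatocyte markers 7, among them Alb, Tat and Cps1, were detected on no array, whereas Ttr and Hnf4a were detected on all 6, and the markers' summed deposited signal was 2850 to 3220 units in Egfr fl/fl and 4540 to 7680 units in Met fl/fl, mostly from Ttr, which did not pass. Of the 5 hepatocyte markers tested 2 were called as higher in Met fl/fl (Apoa1 and Hnf4a) and 2 as higher in Egfr fl/fl (Serpina1a and Ass1). Apoa1 entered the test only through the Met fl/fl arrays, where it was at least 2.37-fold higher. Serpina1a entered only through the Egfr fl/fl arrays, at least 1.5-fold higher there. Of 11 biliary and progenitor markers with a probe 9 could be tested, among them Krt8, Krt18, Krt19 and Spp1, with 5 of the 9 called as higher in Egfr fl/fl and 0 as higher in Met fl/fl (sums of 22800 to 31900 against 16800 to 26800 units). Of all genes tested, 18.6% were called as higher in Egfr fl/fl and 22.8% as higher in Met fl/fl. Markers of other cells moved with the genotype in part. The summed deposited signal of 10 stellate and fibroblast markers was 432 to 651 units in Egfr fl/fl and 26.8 to 47.9 units in Met fl/fl, mostly from Acta2, while Col1a1, Col3a1, Pdgfra and Lrat were detected on no array. The 2 tested were called as higher in Egfr fl/fl, Acta2 at least 17.7-fold and Dcn at least 1.35-fold. Both entered the test only through the Egfr fl/fl arrays. Further Acta2 probes differed by -1.05, -0.51 and -1.11 on the log2 scale. Of 8 leukocyte markers 6 were detected on no array, with sums of 45.8 to 86.2 units against 23.1 to 32.8 units. The 1 tested, Csf1r, was called as higher in Egfr fl/fl, at least 1.47-fold, and also entered only through those arrays. Of 8 endothelial markers 4 were detected on no array (sums of 14.9 to 62.0 against 60.0 to 72.6 units), as were 4 of 4 erythroid markers. The 2 endothelial markers tested were not called. The part of these cells in the differences below was not tested. In bulk RNA, fewer cells of a type and less RNA per cell cannot be told apart.

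Levels are given first as deposited intensity in arbitrary units, before normalization between arrays, and then as log2 intensity after background correction and quantile normalization. A difference is the Met fl/fl mean less the Egfr fl/fl mean on that log2 scale, with its standard error (SE) from limma and a p-value adjusted by Benjamini-Hochberg over all 11578 probes tested. A gene was called at an adjusted p under 0.05 by its brightest tested probe. Where no probe of a gene was tested, its detection is that of its brightest probe alone. Probe brightness depends on the probe's sequence, so levels of different probes were not compared.

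Met fl/fl cells had more Pkm and Aldoa transcript and Egfr fl/fl cells more Pfkp and Pfkl, while Hk1, Eno1 and Ldha did not pass the test. The calls of Pkm and Pfkp were kept in 19 of 19 alternative analyses, those of Aldoa and Pfkl in only 12 each. Pfkp had the largest difference, 5.24-fold, and Pkm the largest in the other direction, 2.04-fold. Of the 7 enzymes tested, 4 (57.1%) were called, against 41.4% of the 8549 genes tested in the same fit. The 2 enzymes higher in Met fl/fl stand beside 22.8% of all genes called in that direction, and the 2 higher in Egfr fl/fl beside 18.6%. Of all called genes 55.2% were higher in Met fl/fl, against 48.1% with median scaling and 50.4% with cyclic loess. For 4 of the 7 enzymes the genotypes' values did not overlap, against 52.0% of all genes. Of the 9 enzyme probes tested 5 were called, against 39.8% of all probes, and 1 of the 5, a Pfkp probe, entered the test only through the group where it was high. With 7 enzymes, nothing particular to glycolysis is read from these counts. The median difference of the enzymes was 0.05, against 0.07 over all genes tested.

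**Figure D1:**
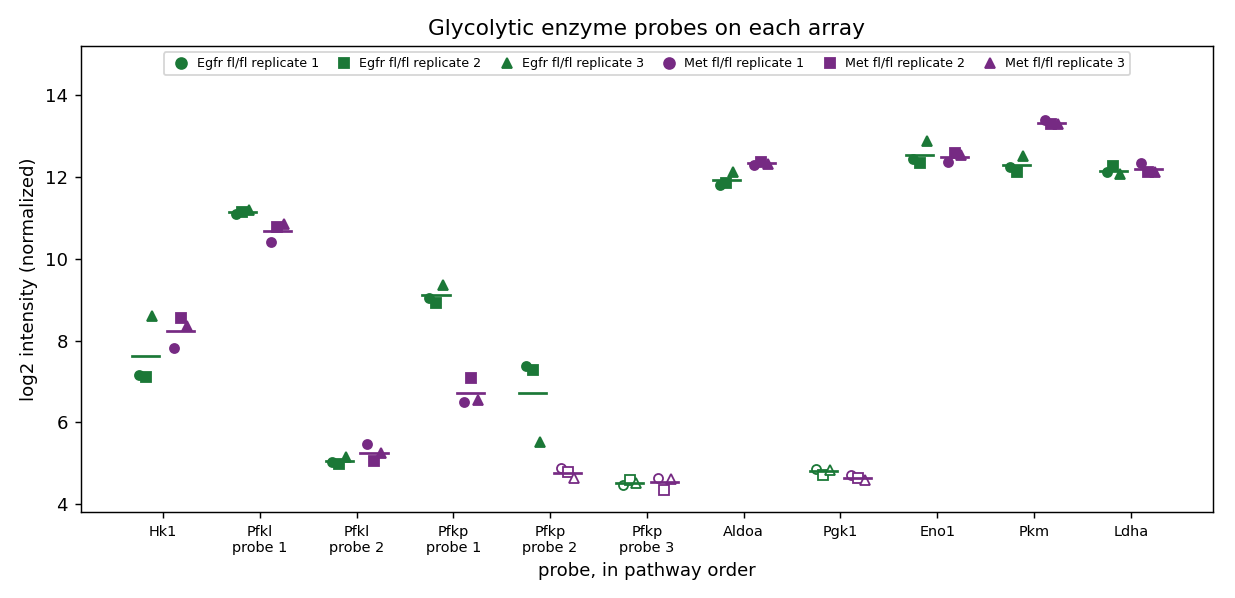
Log2 normalized intensity (vertical axis) of each of the 11 enzyme probes on each array, in pathway order, with Egfr fl/fl in green and Met fl/fl in purple, symbols for replicates, short lines for group means and open symbols where the probe was not detected. The groups lie apart for the brightest probes of Pfkp and Pkm, and the third Pfkp probe and the Pgk1 probe stay at background on every array.

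Hk1 encodes the hexokinase found in most tissues. Its probe (chromosome 10) gave 99.1, 100 and 436 units for Egfr fl/fl replicates 1, 2 and 3, against 295, 360 and 284 units for Met fl/fl. Egfr fl/fl replicate 3 was the highest of the 6 arrays, while replicates 1 and 2 were the lowest, so the groups overlapped. The log2 intensity was 7.62 ± 0.85 in Egfr fl/fl against 8.24 ± 0.38 in Met fl/fl (SD, n = 3), a difference of 0.62 ± 0.37 SE with a 95% interval from -0.20 to 1.45 (limma adjusted p = 0.208). By exact permutation, two-sided, p was 0.4, where 0.1 is the smallest that 3 arrays against 3 allow. Hk1 is the enzyme whose result depends most on 1 array: without Egfr fl/fl replicate 3 the difference was 1.11 (limma adjusted p = 0.000689), and with that array alone standing for its group, a setting chosen after seeing the data, it was -0.36 (adjusted p = 0.376). With array weights on all 6 arrays Hk1 was called too, at 1.18 (limma adjusted p = 0.000219). Hexokinase 2, the form known from growing and tumour cells, and the isomerase Gpi1 could not be followed.

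Phosphofructokinase is made from liver (Pfkl), platelet (Pfkp) and muscle (Pfkm) type subunits. Pfkl and Pfkp are shown together with their promoters because both were lower in Met fl/fl and by unequal amounts. The windows run from 250 bases before to 50 after the first annotated start in RefSeq on assembly GRCm38.p6, 5′ to 3′ on the gene's strand. Capitals mark the core of the hypoxia response element, ACGTG or GCGTG on either strand, the sequence bound by hypoxia-inducible factors, which are known to drive glycolytic genes.
Pfkp (chr13:6648722-6649021, minus strand): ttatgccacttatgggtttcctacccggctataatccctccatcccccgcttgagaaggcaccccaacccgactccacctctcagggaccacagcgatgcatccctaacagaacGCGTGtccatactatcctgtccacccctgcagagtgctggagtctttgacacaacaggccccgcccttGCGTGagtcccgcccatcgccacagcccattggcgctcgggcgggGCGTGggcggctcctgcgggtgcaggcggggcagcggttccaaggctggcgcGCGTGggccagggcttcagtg
Pfkl (chr10:78009758-78010057, minus strand): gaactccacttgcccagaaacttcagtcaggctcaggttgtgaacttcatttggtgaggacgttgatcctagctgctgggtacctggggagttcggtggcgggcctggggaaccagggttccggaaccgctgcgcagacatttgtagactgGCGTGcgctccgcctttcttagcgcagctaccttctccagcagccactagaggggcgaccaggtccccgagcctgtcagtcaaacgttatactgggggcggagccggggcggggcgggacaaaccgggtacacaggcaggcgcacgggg
The Pfkp window held 4 core matches and the Pfkl window 1. The first window of Pfkm held 3. Whether such counts go with transcript levels was not tested. Such a match is a description of the letters and not a binding site. At least 1 was held by 43.8% of 32851 RefSeq promoter windows, which include those of later starts. The first window of 6 of the 10 enzymes held at least 1. Hk1, Aldoa and Pkm had none there, but a later window held 5, 1 and 2. The GC box GGGCGG, searched on both strands, was in the first window of 7 of the 10 enzymes, against 35.7% of all windows. Aldoa and Eno1 had none there, but later windows of each held 3.

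Pfkp, the platelet type subunit, had the largest difference of the enzymes. Its brightest probe (chromosome 13) read 404, 383 and 727 units in Egfr fl/fl and 103, 120 and 70.2 units in Met fl/fl. Every Egfr fl/fl array lay above every Met fl/fl array. The log2 intensity was 9.10 ± 0.22 in Egfr fl/fl against 6.71 ± 0.32 in Met fl/fl (SD, n = 3), a difference of -2.39 ± 0.21 SE (95% interval -2.85 to -1.93, limma adjusted p = 1.73e-05). By size it ranked 240 among the 11578 probes tested. Without Egfr fl/fl replicate 3 it was -2.28.

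A second Pfkp probe read 116, 113 and 36.3 units in Egfr fl/fl and 12.3, 6.83 and 1.37 units in Met fl/fl, where it was detected on no array. With undetected arrays raised to the lowest detected signal, the Egfr fl/fl level was at least 3.42-fold higher. This probe entered the test only through the Egfr fl/fl arrays, so its call (limma adjusted p = 0.00454) is no separate support for that of the brightest probe. The probes placed replicate 3 differently. Relative to the mean log2 value of replicates 1 and 2 it lay at 0.37 by the brightest probe and at -1.81 by the second. The third Pfkp probe, between -15.8 and 1.87 units, was detected on no array and was not tested. The transcripts and exons that the probes match are not known here.

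Pfkl, the liver type subunit, was lower in Met fl/fl by a smaller amount. Its brightest probe (chromosome 10) read 1775, 1838 and 2560 units in Egfr fl/fl and 1848, 1715 and 1729 units in Met fl/fl. These deposited values overlap. After normalization the log2 values were 11.10, 11.13 and 11.19 in Egfr fl/fl and 10.41, 10.77 and 10.86 in Met fl/fl, which do not. The means were 11.14 ± 0.04 and 10.68 ± 0.24 (SD, n = 3), a difference of -0.46 ± 0.14 SE, or 1.38-fold (limma adjusted p = 0.023). The call ended without Egfr fl/fl replicate 1 (adjusted p = 0.0645), Egfr fl/fl replicate 2 (0.0599) or Met fl/fl replicate 2 (0.0537), and with arrays scaled to a common median (0.214) or no variance trend (0.0506). With the mean of both Pfkl probes the difference was -0.14 (0.457). The second, dim Pfkl probe, at 13.1 to 36.2 units, differed by 0.19 ± 0.16 SE in the other direction and did not pass (limma adjusted p = 0.387).

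Pfkp differed between the genotypes by more than Pfkl did. The log2 intensity of Pfkp minus that of Pfkl, which tells how their balance differed and not which is more abundant, was -2.06, -2.21 and -1.84 on the Egfr fl/fl arrays and -3.90, -3.69 and -4.30 on the Met fl/fl arrays. The mean shift was -1.93, with no overlap between the groups (exact two-sided permutation p = 0.1, the smallest possible). Pfkm, the muscle type subunit, moved the opposite way. Its brightest probe read 338, 287 and 585 units in Egfr fl/fl and 1142, 962 and 805 units in Met fl/fl, without overlap. The difference was 1.02 ± 0.16 SE, or 2.03-fold higher in Met fl/fl (limma adjusted p = 0.000854). A further Pfkm probe gave 1.66 ± 0.21 SE (adjusted p = 0.000197), and the third, dim one -0.07 ± 0.19 SE (adjusted p = 0.793). Pfkp minus Pfkm shifted by -3.41 and Pfkl minus Pfkm by -1.48, comparisons chosen after the values were seen (exact permutation p = 0.1 each).

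**Figure D2:**
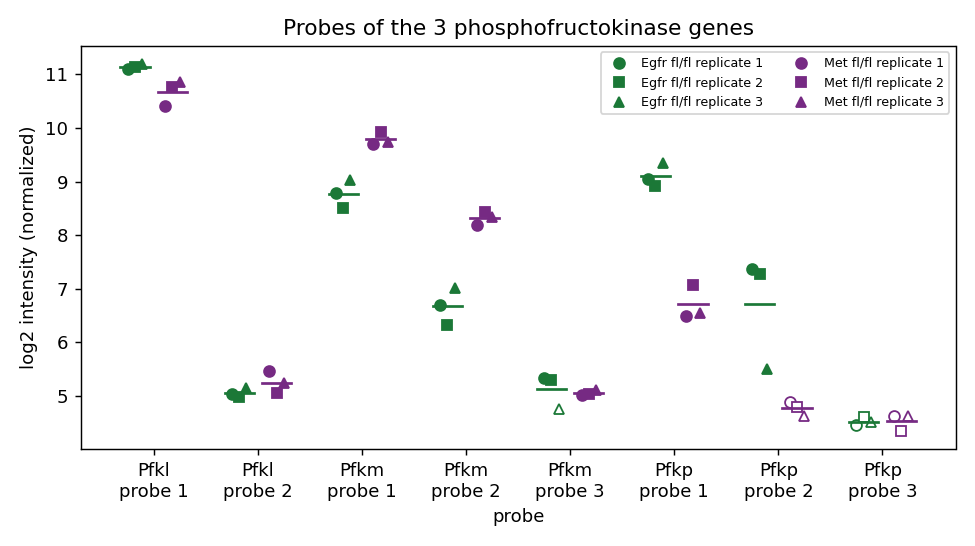
Log2 normalized intensity (vertical axis) of every probe of Pfkl, Pfkm and Pfkp on each array, with colours, symbols and lines by genotype, replicate and group mean, and open symbols where not detected. The first probes of Pfkl and Pfkp are higher in Egfr fl/fl and the first and second of Pfkm in Met fl/fl, while the dim probes of Pfkl and Pfkm overlap.

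Aldoa encodes aldolase A, which splits fructose bisphosphate into its triose phosphates. Its probe (chromosome 7) read 2982, 3118 and 4926 units in Egfr fl/fl and 6996, 5164 and 4817 units in Met fl/fl. The deposited values overlapped by 1 array of each group, Egfr fl/fl replicate 3 and Met fl/fl replicate 3. After normalization the groups lay apart, at 11.93 ± 0.18 (SD, n = 3) and 12.33 ± 0.03, a difference of 0.40 ± 0.12 SE, or 1.32-fold higher in Met fl/fl (limma adjusted p = 0.0213). The call ended without Egfr fl/fl replicate 1 (adjusted p = 0.104), Egfr fl/fl replicate 2 (0.0802), Met fl/fl replicate 2 (0.0845) or Met fl/fl replicate 3 (0.0617), with arrays scaled to a common median (0.238) and with no variance trend (0.0617). Without Egfr fl/fl replicate 3 the difference was 0.50 (adjusted p = 0.0016).

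Pgk1 encodes phosphoglycerate kinase, the enzyme of the first ATP-making step. Its probe (chromosome X) read 9.18, 5.63 and 10.5 units in Egfr fl/fl and 5.19, 1.77 and -0.681 units in Met fl/fl and was detected on no array. It was not tested, and the reading says only that this probe gave no signal above background.

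Eno1 encodes the enolase of most tissues, which makes phosphoenolpyruvate. Its probe (chromosome 4) read 4530, 4328 and 7655 units in Egfr fl/fl and 7250, 6218 and 5708 units in Met fl/fl, and the highest array was Egfr fl/fl replicate 3. Means of 12.55 ± 0.29 (SD, n = 3) and 12.49 ± 0.12 on the log2 scale gave a difference of -0.05 ± 0.15 SE, with a 95% interval from -0.38 to 0.28 (limma adjusted p = 0.809). The sign turned, to 0.11, without Egfr fl/fl replicate 3, and the test was again not passed (adjusted p = 0.43). The interval includes differences of either sign. The mouse also has Eno1b, a near-identical copy of Eno1, and whether the probe separates them is not known here.

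Pkm encodes the muscle type pyruvate kinase, which makes pyruvate and ATP and is spliced into an M1 form and an M2 form, the latter known from embryonic and proliferating cells. Its probe (chromosome 9) read 4074, 3834 and 6136 units in Egfr fl/fl and 14243, 9784 and 9158 units in Met fl/fl. Every Met fl/fl array lay above every Egfr fl/fl array. The log2 intensity was 12.29 ± 0.19 in Egfr fl/fl against 13.32 ± 0.06 in Met fl/fl (SD, n = 3), a difference of 1.03 ± 0.12 SE, or 2.04-fold (95% interval 0.76 to 1.30, limma adjusted p = 0.000119). Without Egfr fl/fl replicate 3 it was 1.14. The sources used here do not say which splice form the probe reads. The promoter of the first annotated start is shown because Pkm is the enzyme with the largest difference towards Met fl/fl, and it held 0 matches to the hypoxia core, so it has no capitals.
Pkm (chr9:59656326-59656625, plus strand): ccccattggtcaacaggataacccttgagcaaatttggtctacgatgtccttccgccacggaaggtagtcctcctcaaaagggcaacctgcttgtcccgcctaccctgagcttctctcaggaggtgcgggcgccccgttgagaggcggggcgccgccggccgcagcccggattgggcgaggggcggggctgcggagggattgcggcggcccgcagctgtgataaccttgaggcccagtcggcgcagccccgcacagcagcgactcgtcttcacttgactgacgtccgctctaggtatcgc
The window of the second annotated Pkm start held 2 core matches. No match in a window says only that these letters are not in it.

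Ldha encodes the lactate dehydrogenase subunit that favours lactate. Its probe (chromosome 7) read 3644, 4174 and 4692 units in Egfr fl/fl and 7214, 4411 and 4165 units in Met fl/fl, and the groups overlapped. The log2 means were 12.14 ± 0.10 and 12.19 ± 0.13 (SD, n = 3), a difference of 0.05 ± 0.11 SE with a 95% interval from -0.21 to 0.30 (limma adjusted p = 0.762). The Ldha promoter is shown because its first window held 7 core matches, the most of the enzymes' first windows. Any link between such matches and transcript levels was not tested.
Ldha (chr7:46845554-46845853, plus strand): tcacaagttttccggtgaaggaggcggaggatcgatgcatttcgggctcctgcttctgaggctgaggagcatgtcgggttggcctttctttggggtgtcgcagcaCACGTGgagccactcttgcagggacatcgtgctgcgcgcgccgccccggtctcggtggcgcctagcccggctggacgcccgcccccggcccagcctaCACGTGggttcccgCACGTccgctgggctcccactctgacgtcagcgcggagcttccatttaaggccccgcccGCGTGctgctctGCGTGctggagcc
In this window 2 CACGTG E-boxes, the sequence bound by MYC and related factors, each count as a core match on both strands. Ldha was the 1 enzyme of 10 with an E-box in its first window, against 7.15% of all windows.

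**Figure D3:**
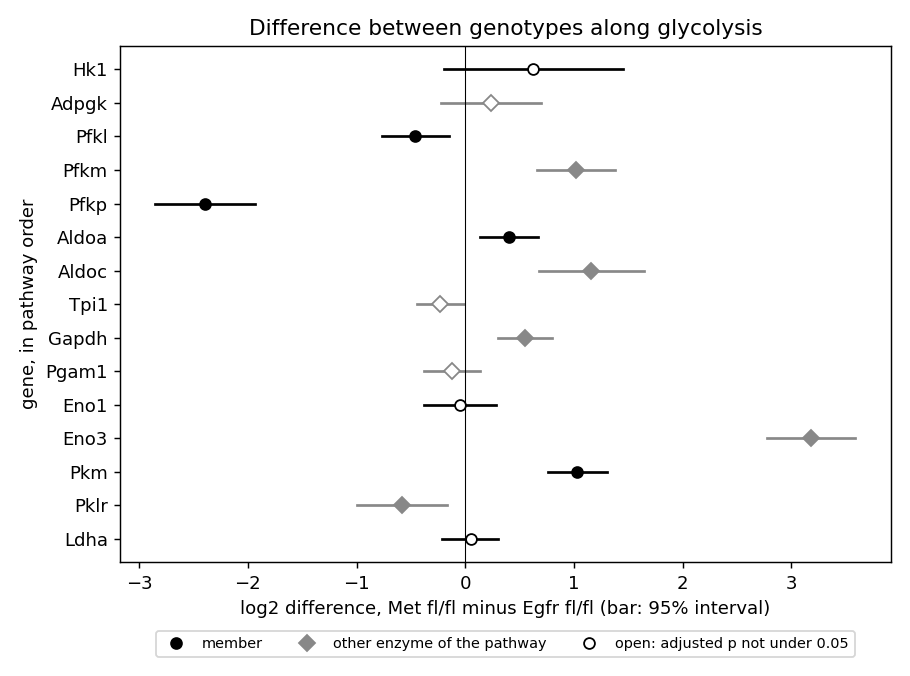
Log2 difference, Met fl/fl minus Egfr fl/fl (horizontal axis), of the enzymes (black) and the other tested enzymes of glycolysis (grey) in pathway order, with bars for the 95% interval and open symbols where the adjusted p was not under 0.05. Pfkp at -2.39 and Eno3 at 3.18 lie farthest from 0. The Pklr value is a fitted one, with no Met fl/fl array detecting the probe.

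The remaining enzymes of the pathway, 16 genes, show how the listed isoenzymes sit among their relatives. Of these 15 had a probe and 8 were tested, with 4 higher in Met fl/fl, 1 higher in Egfr fl/fl and 3 not past the threshold, and a median difference of 0.39. Of all genes tested 22.8% were called as higher in Met fl/fl and 18.6% as higher in Egfr fl/fl. These shares stand beside the counts of the later lists too, and nothing particular to a list is read from such small counts. Eno3, the muscle type enolase, had the largest difference: it read 30.4, 27.5 and 52.5 units in Egfr fl/fl and 646, 513 and 388 units in Met fl/fl, 9.07-fold higher (3.18 ± 0.18 SE, limma adjusted p = 9.18e-07). Eno1, by contrast, did not pass in the same cells. Aldoc, aldolase C, read 21.0, 20.0 and 24.7 units against 128, 74.1 and 42.8 units, a difference of 1.16 ± 0.22 SE (adjusted p = 0.00221). Gapdh, the triose phosphate dehydrogenase often taken as a reference gene, was 1.46-fold higher in Met fl/fl (0.55 ± 0.11 SE, adjusted p = 0.00328) and is named here after its values were seen. Pklr, the pyruvate kinase of hepatocytes and red cells, was detected on 3 Egfr fl/fl and 0 Met fl/fl arrays at 15.6 to 30 units, an Egfr fl/fl level at least 1.25-fold higher. It entered the test only through the Egfr fl/fl arrays and had no value when any 1 of them was left out. Its call (limma adjusted p = 0.0309) ended without any 1 of the Met fl/fl arrays (adjusted p from 0.0688 to 0.103) and with cyclic loess (0.0571). Hk3, Bpgm and Pgam2 were detected on no array.

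Glucose and lactate transporters gave 2 testable genes of 9. Slc2a1, the glucose transporter of most proliferating cells, read 1395, 1369 and 2549 units in Egfr fl/fl and 1311, 1177 and 1142 units in Met fl/fl. It was 1.70-fold higher in Egfr fl/fl after normalization (-0.76 ± 0.16 SE, limma adjusted p = 0.00395). Slc2a8 did not pass (0.60 ± 0.23 SE, adjusted p = 0.0653). The probe of the lactate transporter Slc16a1 and the brighter of 2 probes of its partner Bsg were detected on no array. That says only that these probes gave no signal above background.

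The enzymes that make or remove fructose bisphosphate's regulatory isomer, the activator of phosphofructokinase, gave 3 testable genes of 5, with 2 higher in Met fl/fl. Pfkfb4 read 25.2, 5.41 and 21.7 units in Egfr fl/fl, where 2 arrays detected it, and 104, 96.8 and 104 units in Met fl/fl, a fitted difference of 1.66 ± 0.24 SE (limma adjusted p = 0.000457). Pfkfb2 differed by 0.96 ± 0.17 SE (adjusted p = 0.00178), and Pfkfb3 by -0.29 ± 0.16 SE without passing (adjusted p = 0.168).

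At the entry of pyruvate into mitochondria 11 genes of 13 were tested, 2 were higher in Met fl/fl, 2 in Egfr fl/fl and 7 did not pass. Of the 4 tested kinases that switch off pyruvate dehydrogenase, Pdk4 and Pdk1 passed, in opposite directions. Pdk2 (0.24, limma adjusted p = 0.288) and Pdk3 (0.51, adjusted p = 0.0871) did not. Pdk4 read 24.5, 22.0 and 32.8 units in Egfr fl/fl and 371, 152 and 117 units in Met fl/fl, 4.44-fold higher (2.15 ± 0.25 SE, limma adjusted p = 0.000135). Pdk1 read 82.8, 63.0 and 111 units against 26.0, 23.1 and 22.4 units, 2.60-fold higher in Egfr fl/fl (-1.38 ± 0.19 SE, adjusted p = 0.000316). The phosphatase Pdp2, which switches the complex on, was higher in Met fl/fl by 0.96 (adjusted p = 0.00293), and the complex's subunit Pdhb was higher in Egfr fl/fl, with a difference of -0.92 (adjusted p = 0.0051).

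Of 11 transcription factors and oxygen sensors known to act on glycolytic genes 9 were tested, with 2 higher in each genotype and a median difference of 0.01. Myc read 86.5, 82.0 and 209 units in Egfr fl/fl and 53.3, 45.2 and 40.3 units in Met fl/fl (-1.23 ± 0.23 SE, limma adjusted p = 0.00198). Arnt, the partner of the hypoxia-inducible factors, was detected on 1 Egfr fl/fl array and 3 Met fl/fl arrays, with a fitted difference of 1.05 ± 0.22 SE (adjusted p = 0.00364). Egln1, an oxygen-sensing prolyl hydroxylase, was detected on 3 Egfr fl/fl and 0 Met fl/fl arrays, an Egfr fl/fl level at least 1.77-fold higher. It is counted as called (limma adjusted p = 0.00279) but entered the test only through the Egfr fl/fl arrays. Egln1 had no value when any 1 of them was left out. Egln2, of the same family, was higher in Met fl/fl by 0.59 (adjusted p = 0.0226), a call that ended without Egfr fl/fl replicate 2 or any 1 of the Met fl/fl arrays (0.0567 to 0.0794) and with median scaling (0.228). Hif1a did not pass (-0.51 ± 0.21 SE, adjusted p = 0.0815).

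**Figure D4:**
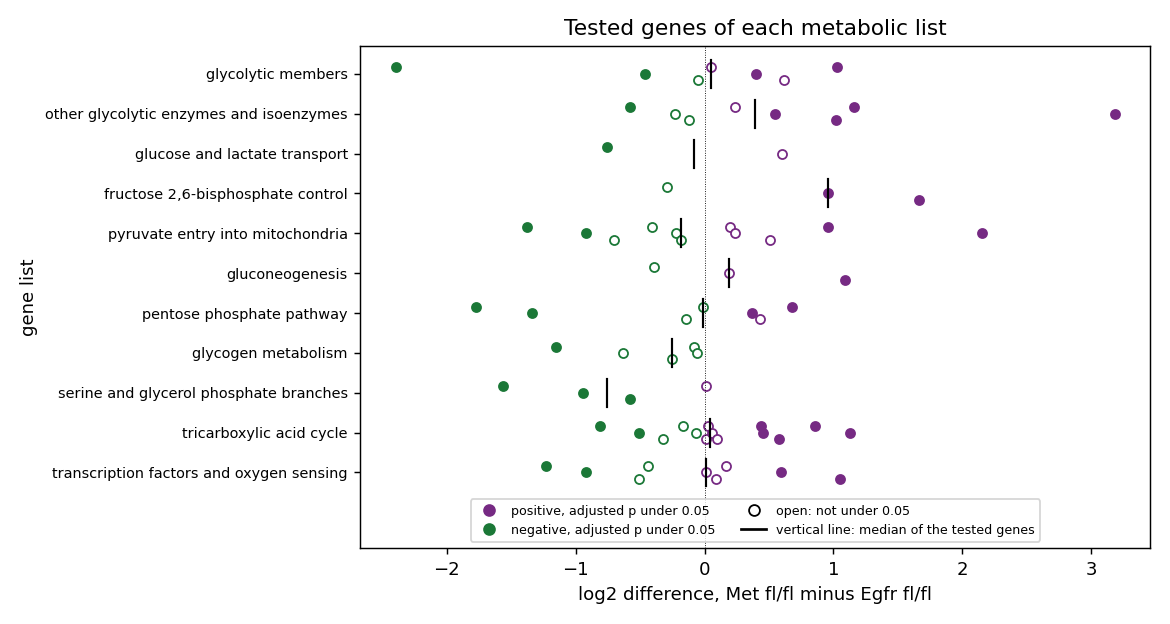
Log2 difference, Met fl/fl minus Egfr fl/fl (horizontal axis), of each tested gene in the enzymes' list and 10 further metabolic lists, filled where the adjusted p was under 0.05, with a black line at each list's median. Most lists hold called genes on both sides of 0, and the median of the enzymes lies at 0.05.

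Among all tested genes, the 3 whose 6 centred log2 values lay nearest to those of Pkm by Euclidean distance were Ndc80 (0.10), Fam214b (0.10) and Qars (0.15), where Pkm itself spanned 1.26 over the arrays. For Pfkp they were Camk1 (0.30), Kif2c (0.31) and Pcolce (0.32), where Pfkp spanned 2.85. These distances over 6 arrays describe likeness of values and carry no test.

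Leaving arrays out showed which enzymes kept their call. Pkm ranged from 0.78 to 1.14 and Pfkp from -2.66 to -2.07 over 19 alternatives, each called in all 19. The count of called enzymes was 2 to 5 when 1 array was left out, and it reached 5, with Hk1 added, without Egfr fl/fl replicate 3. The share of all genes called moved too, from 41.4% to 51.3% without that array and to between 29.3% and 36.5% without 1 of the others.

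**Figure D5:**
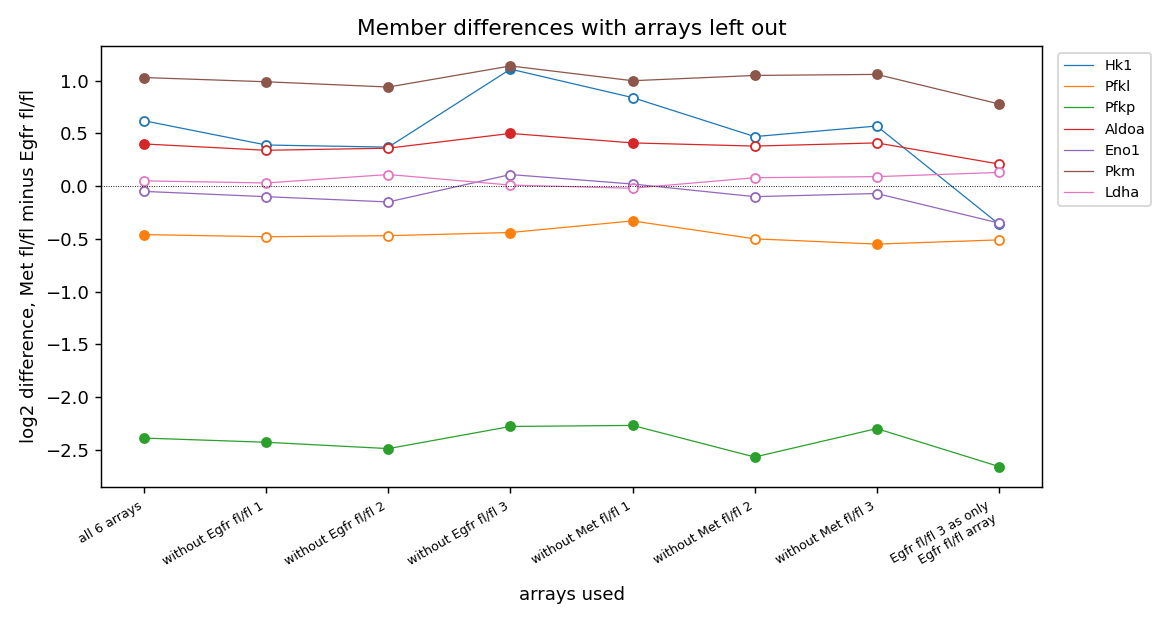
Log2 difference, Met fl/fl minus Egfr fl/fl (vertical axis), of the 7 tested enzymes with all 6 arrays, with each array left out and with replicate 3 alone for Egfr fl/fl (horizontal axis), filled where the adjusted p was under 0.05. Pfkp and Pkm stay filled in every setting drawn, and Hk1 runs from -0.36 to 1.11.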

How the data were processed

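RNA of 6 samples was measured on 1-colour Illumina arrays, processed with GenomeStudio 2011.1 per the submitters' processing notes. The deposited table holds a non-normalized intensity per probe, with background already subtracted since values fall below 0, and a detection p-value per probe, named per the file headers. The deposited matrix of normalized intensity values is on a linear scale, with column medians from 7.51 to 7.57 units, and was used as an alternative. Array model: not given in the sources used here.

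From the non-normalized values, limma 3.58.1 in R 4.3.3 applied normexp with negative controls inferred from detection p-values, an offset of 16 (which understates changes of dim probes) and quantile normalization on the log2 scale, which removes differences in total RNA. Probes whose detection p was under 0.05 on 3 or more arrays entered lmFit and eBayes (variance trend on, no covariate) with Benjamini-Hochberg adjustment. The fit was also run on simulated data with independent arrays, which cannot show an effect of slide or culture. Symbols were updated through the RefSeq gene table of GRCm38.p6, and 31 probes whose symbols had become dates named no gene. Chromosomes and promoter windows are those of RefSeq on that assembly. Hk2 minus Hk1, a planned balance, could not be computed.

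The enzymes, the 10 metabolic lists and the 6 marker lists were chosen with earlier results of these data known. Named were all probes of the enzymes, up to 3 called genes of each list in each direction (a few are not reported here; the 1 with the largest difference where none passed), and the 3 nearest genes of the enzyme with the largest difference in each direction. A probe detected on no array of its dimmer group is given as a bound. Alternatives covered background correction, normalization, offset, filter, variance model, array weights, replicate number as a block, mean of probes and each array left out.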

Additional observations from a re-analysis of the deposited data

How the results depend on the processing

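The calls of Pfkp and Pkm were kept in 19 of 19 alternatives, and those of Pfkl and Aldoa in 12 of 19 each. Genes called numbered 3541, against 5255 with array weights, 4194 without Egfr fl/fl replicate 3, 2351 with median scaling and 2226 with replicate 3 alone standing for Egfr fl/fl, which was chosen after seeing the data and assumes that this array varies like the Met fl/fl arrays. Called enzymes fell from 4 to 2 with median scaling, without a variance trend and with that lone array, and ran from 2 to 5 with 1 array left out. The lone array gave a median of -0.35 over the enzymes, -0.36 for Hk1, -0.51 for Pfkl and 0.21 for Aldoa. Median scaling gave -0.44 for Pfkl, 0.40 for Aldoa and 0.02 for Eno1. No variance trend gave -0.46 for Pfkl and 0.40 for Aldoa. Array weights gave 5 called enzymes, with Hk1 added at 1.18 (limma adjusted p = 0.000219), and 0.11 for Eno1. Cyclic loess gave -0.01 for Ldha, and the mean of probes -0.14 for Pfkl. An offset of 50 moved the Pfkp to Pfkl shift to -1.61. With each array left out in turn the differences ran from 0.37 to 1.11 for Hk1, -0.55 to -0.33 for Pfkl, 0.34 to 0.50 for Aldoa, -0.15 to 0.11 for Eno1 and -0.02 to 0.11 for Ldha. The cause of these changes was not tested, except that leaving out arrays leaves fewer samples. Same-numbered arrays had deviations correlated at 0.237, -0.145 and 0.32, and not every array correlated best with its own number, so the numbers were not taken as pairs. With the replicate number as a block 3880 genes and 4 enzymes were called. Of 29 pathway genes named by the rule, 21 kept their call wherever a value was given, 8 lost it in at least 1 alternative and 0 reversed. Dim probes gave no value under some filters. Probes near background, such as the second probes of Pfkl and Pfkp, limit what these arrays can show.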

Other observations

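Among branches that leave glycolysis, the pentose phosphate pathway held called genes in both directions, the serine and glycerol phosphate branches only towards Egfr fl/fl. In the pentose phosphate pathway all 7 genes were tested, with 2 higher in Met fl/fl, 2 in Egfr fl/fl and a median difference of -0.01. Rpia and Rpe, the isomerase and epimerase of ribulose phosphate, were higher in Egfr fl/fl. Rpia read 316, 241 and 462 units there against 115, 92.3 and 96.7 units (3.41-fold, limma adjusted p = 6.53e-05), and Rpe differed by -1.34 (adjusted p = 0.000338). Taldo1, transaldolase, and Pgd, the phosphogluconate dehydrogenase, were higher in Met fl/fl by 0.68 (adjusted p = 0.00096) and 0.37 (adjusted p = 0.022). Of 4 testable genes in the serine and glycerol phosphate branches 3 were called as higher in Egfr fl/fl and 0 as higher in Met fl/fl. Of all genes tested, 18.6% and 22.8% were called in these directions, and 4 genes are too few to read more from. Phgdh, the first enzyme of serine synthesis, read 474, 568 and 464 units against 211, 289 and 113 units (-1.56 ± 0.30 SE, adjusted p = 0.00246). The glycerol phosphate dehydrogenases Gpd1 and Gpd2 differed by -0.94 (adjusted p = 0.00158) and -0.58 (adjusted p = 0.0109). The call of Pgd ended without Egfr fl/fl replicate 1 or 2 or Met fl/fl replicate 2 or 3 (adjusted p from 0.0704 to 0.104), with median scaling (0.27) and with no variance trend (0.0705). That of Gpd2 ended without Met fl/fl replicate 3 (0.0544) and with median scaling (0.17).

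In the tricarboxylic acid cycle 14 genes of 16 were tested, with 5 higher in Met fl/fl, 2 in Egfr fl/fl and 7 not past the threshold. Of all genes tested, 22.8% were called as higher in Met fl/fl and 18.6% as higher in Egfr fl/fl. Ogdh was higher in Met fl/fl by 1.13 (limma adjusted p = 0.000597) and Sdhc by 0.86 (adjusted p = 0.000275). Sdhd and Idh3a were higher in Egfr fl/fl, with differences of -0.81 (adjusted p = 0.0341) and -0.51 (adjusted p = 0.0407). The call of Sdhd ended without any 1 array other than Egfr fl/fl replicate 3 (0.0575 to 0.141), and that of Idh3a without any 1 array other than Met fl/fl replicate 3 (0.0605 to 0.151), with median scaling (0.251) or with no filter (0.0718). Of 5 testable genes of glycogen metabolism 1 was called, Ugp2, which makes UDP-glucose (-1.15, adjusted p = 0.00419). Of 3 testable genes of gluconeogenesis 1 was called, the pyruvate carboxylase Pcx, detected on 0 Egfr fl/fl arrays, with a Met fl/fl level at least 1.68-fold higher. It entered the test only through the Met fl/fl arrays, with a limma adjusted p of 0.0019, or 0.0027 with no filter, and had no value when any 1 of them was left out.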
